A study of Homo sapiens with 4 samples.

Results

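Hyaluronan and versican matrix genes were compared at day 2 of hematopoietic differentiation of human pluripotent stem cells, with and without an inhibitor of Wnt secretion. The set held 8 genes of the 56595 gene symbols in the expression table. They were taken by symbol: the hyaluronan synthases HAS1, HAS2 and HAS3, the proteoglycan gene VCAN, the link protein genes HAPLN1 and HAPLN3, the hyaluronan receptor gene CD44 and the hyaluronidase gene HYAL2. Each symbol had 1 row in the table. The cells were H1, an established human embryonic stem cell line, so all libraries come from 1 line. Both groups were collected at day 2 in custom mTeSR1 medium with activinA at 40 ng/ml and BMP4 at 50 ng/ml. The DMSO group (n = 2) received the solvent and the IWP2 group (n = 2) received IWP2, a small molecule that blocks Porcupine, the enzyme that lipid-modifies Wnt proteins before their secretion. The IWP2 dose is not given in the sources used here. The labels do not say whether the samples of a group were separate cultures, so the p-values measure the spread between these samples, which may be technical. Levels are in FPKM, fragments per kilobase of transcript scaled to library size, which is per length and lets genes be set side by side.

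Hyaluronan is a long, unsulfated sugar polymer that is made at the plasma membrane by the synthases and extruded into the space around the cell. Versican, a large chondroitin sulfate proteoglycan, binds it through a globular domain, and link proteins lock this contact so that bulky, hydrated coats form. CD44 tethers the coat to the cell, and hyaluronidases such as HYAL2 cut the polymer. HAS2 and versican are both required for early heart and mesenchyme formation in the embryo, and a hyaluronan-rich matrix is a known feature of cells leaving an epithelium.

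Across the 8 genes, HAS2, HAPLN1 and CD44 fell with IWP2, HAS3 rose, and VCAN, HAPLN3 and HYAL2 did not pass the test. HAS1 was near 0 in every library and was not tested. Thus 4 of the 7 tested genes passed (limma on log2(FPKM + 1), Benjamini-Hochberg adjusted p below 0.05 over 15957 genes), 3 lower and 1 higher. Of all genes tested, 13.3% passed in either direction, 7.39% lower and 5.86% higher, and 6.57% passed with a log2 difference of at least 1, as HAS2, HAPLN1, CD44 and HAS3 did. The IWP2 and DMSO values did not overlap for 6 of the 7 genes, beside 58.6% of all genes tested. The median difference was -0.23 on the log2 scale for the 7 genes and -0.01 for all genes. In bulk samples such as these, fewer cells of a type and less RNA per cell cannot be told apart.

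**Figure D1:**
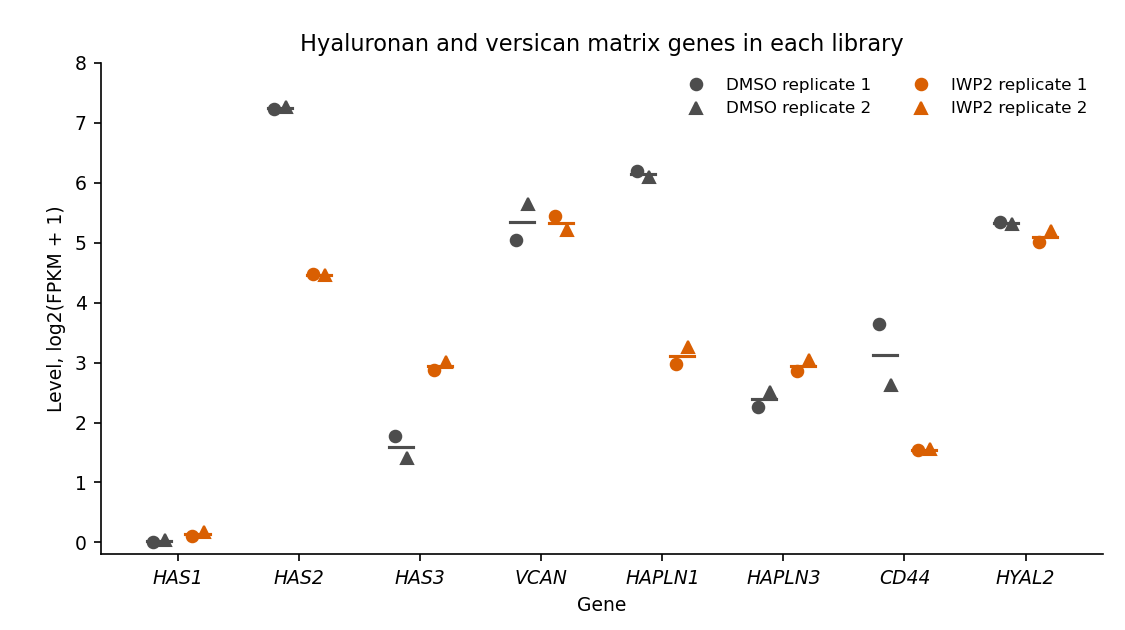
Level of each of the 8 genes in each library as log2(FPKM + 1), with DMSO in grey, IWP2 in orange, circles for replicate 1, triangles for replicate 2 and a bar at the mean of the 2 libraries. HAS2 and HAPLN1 drop with IWP2 with little spread between replicates, HAS3 stands higher, and the VCAN libraries of the 2 groups intermingle.

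The order of the levels differed between the groups. With DMSO, HAS2 led at 152 FPKM ± 2.40 (SD, n = 2), and HAPLN1 followed at 69.6 ± 3.50. VCAN at 40.5 ± 12.2 and HYAL2 at 39.1 ± 0.675 came next and did not differ beyond their spread. CD44 at 8.34 ± 4.51 lay above HAPLN3 at 4.25 ± 0.622, a gap smaller than the SD of CD44, and HAS3 at 2.05 ± 0.554 stood above HAS1. With IWP2, VCAN at 39.3 ± 4.37 and HYAL2 at 33.4 ± 3.09 led, with libraries that lay close together but did not overlap. HAS2 came next at 21.1 ± 0.275, and HAPLN1 at 7.69 ± 1.21, HAPLN3 at 6.73 ± 0.675 and HAS3 at 6.7 ± 0.446 followed without differing beyond their spread. CD44 stood at 1.92 ± 0.00773.

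Among the synthases, HAS2 makes most of the hyaluronan of the embryo. HAS2 (chr8:121612116-121641390, minus strand, GRCh38) measured 150.05 and 153 FPKM in the DMSO libraries and 21.3 and 20.9 FPKM in the IWP2 libraries. Both DMSO libraries were high, both IWP2 libraries were low, and the replicates of each group lay within a few FPKM of each other. The mean FPKM was 7.18-fold lower with IWP2. On the log2(FPKM + 1) scale the difference was -2.79 (SE 0.0759, 95% interval -2.98 to -2.59, limma adjusted p = 0.000302), and HAS2 stood 12th by p-value among the 15957 genes. HAS2 lay above 96.6% of the tested genes in level with DMSO and above 73.8% with IWP2.

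HAS3 encodes a second synthase that uses the same sugar precursors. HAS3 (chr16:69105564-69118719, plus strand) measured 2.44 and 1.66 FPKM with DMSO and 6.39 and 7.02 FPKM with IWP2. Both IWP2 libraries were above both DMSO libraries, and the mean FPKM was 3.27-fold higher. The log2 difference was 1.35 (SE 0.177, 95% interval 0.89 to 1.80, limma adjusted p = 0.0117). The call was lost without a filter on low values (limma adjusted p = 0.0806). It was also lost without IWP2 replicate 1 (log2 difference 1.41) and without IWP2 replicate 2 (1.29). Over the alternatives that kept all 4 libraries the adjusted p ran from 0.00789 to 0.0806. HAS3 shares 365 exon bases with CHTF8 on the opposite strand, and the counting is not stated to use strand, so fragments there cannot be assigned to one gene. CHTF8, a subunit of an alternative replication clamp loader, measured 69.2 and 75.8 FPKM with DMSO and 74.0 and 71.7 FPKM with IWP2, a log2 difference of 0.01 (limma adjusted p = 0.959).

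The 250 bases before the RefSeq start of HAS3 are shown because HAS3 was the only one of the 8 genes that passed the threshold as higher with IWP2. They lie at chr16:69107290-69107539 on the plus strand of RefSeq's GRCh38.p14, hold 66% G or C, and overlap no exon of the GENCODE v29 annotation. They lie inside the GENCODE span of HAS3, downstream of its outermost start.

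HAS3: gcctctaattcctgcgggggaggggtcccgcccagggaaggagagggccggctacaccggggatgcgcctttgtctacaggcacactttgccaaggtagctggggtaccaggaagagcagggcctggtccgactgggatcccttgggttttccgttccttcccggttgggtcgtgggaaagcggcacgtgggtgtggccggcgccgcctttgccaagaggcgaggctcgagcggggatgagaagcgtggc

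No letters are in capitals because none of the searched motifs was found. The search covered both strands for the TCF/LEF letters CTTTGAT and CTTTGAA and for the E-box letters CAGGTG of SNAI factors. RefSeq entries were matched for 7 of the 8 genes. The windows of HAS3, CD44 and HAPLN1, the changed genes with an entry, held none of the 3 motifs. The windows of CD44 and HAPLN1 lie wholly, in 250 of 250 bases, within GENCODE exons of those genes, so they hold transcribed sequence. Of 35116 promoters of the same length, 5.94% held either TCF/LEF motif and 17.5% held the E-box. The matches say only which letters are in these windows.

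HAS1, the remaining synthase, was at 0 FPKM and 0.0268 FPKM with DMSO and at 0.0784 and 0.126 FPKM with IWP2. At the estimated depth these values correspond to about 0, 0.906, 3.19 and 4.47 fragments. Both groups were thus at the edge of detection, and no fold is given.

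HAS1, HAS2 and HAS3 add up to 152 and 155 FPKM with DMSO and to 27.8 and 28.1 FPKM with IWP2, a sum 5.5-fold lower. HAS2 made up 98.4% and 98.9% of the summed FPKM with DMSO and 76.7% and 74.6% with IWP2. The mean HAS2 share was 98.7% ± 0.364 (SD, n = 2) with DMSO and 75.7% ± 1.54 with IWP2, a difference of -23.0 percentage points. The HAS3 share was 1.6% and 1.07% with DMSO and 22.98% and 24.99% with IWP2. The shares of the groups did not overlap, and the exact permutation test over the 4 libraries gave a two-sided p of 0.333, the smallest that 2 against 2 libraries allow. HAS2 remained the main synthase transcript in all 4 libraries, at 61.4 and 92.4 times the HAS3 level with DMSO and 3.34 and 2.98 times with IWP2.

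**Figure D2:**
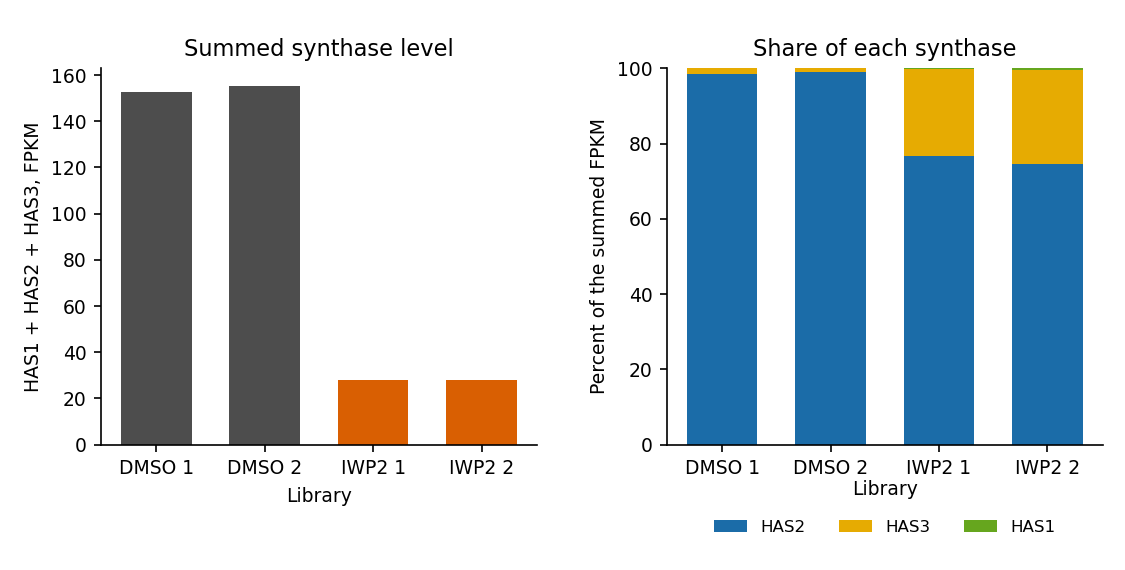
Left, the summed FPKM of HAS1, HAS2 and HAS3 in each library; right, the percent of that sum from each synthase (HAS2 blue, HAS3 yellow, HAS1 green). The sum falls from 152 and 155 FPKM to 27.8 and 28.1 FPKM, and the HAS3 segment widens from 1.6% and 1.07% to 22.98% and 24.99%.

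The HAS2 locus also carries HAS2-AS1, a noncoding RNA from the opposite strand that shares 201 exon bases with HAS2. HAS2-AS1 measured 69.1 and 59.4 FPKM with DMSO and 6.92 and 8.06 FPKM with IWP2, and it fell with IWP2 (log2 difference -2.94, SE 0.124, limma adjusted p = 0.000635). The levels assigned to HAS2 and to HAS2-AS1 were thus both higher in the DMSO libraries than in the IWP2 libraries. The level of HAS2 was 2.17 and 2.58 times that of HAS2-AS1 with DMSO and 3.08 and 2.6 times with IWP2. Without stated strand counting, fragments from the shared bases cannot be told apart.

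The versican gene VCAN (chr5:83471465-83582303, plus strand) measured 31.9 and 49.1 FPKM with DMSO and 42.4 and 36.2 FPKM with IWP2. Both IWP2 values lay between the DMSO values, so the groups overlapped. The log2 difference was -0.01 (SE 0.217, 95% interval -0.57 to 0.54, limma adjusted p = 0.976). Differences within that interval were compatible with these libraries, and the interval is not the smallest change that could have been called. The sign of the VCAN difference turned positive without DMSO replicate 2 (0.29), without IWP2 replicate 2 (0.10) and with quantile normalization (0.03). The values are per gene and do not separate the splice forms of versican, which differ in the stretch that carries the chondroitin sulfate chains.

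HAPLN1, the cartilage link protein that fastens versican and aggrecan to hyaluronan, lies beside VCAN. HAPLN1 (chr5:83637805-83721613, minus strand) measured 72.1 and 67.1 FPKM with DMSO and 6.83 and 8.55 FPKM with IWP2. The groups stood far apart, with both IWP2 libraries low. The mean FPKM was 9.05-fold lower and the log2 difference was -3.03 (SE 0.127, 95% interval -3.35 to -2.70, limma adjusted p = 0.000635), the 82nd lowest of the 15957 genes. HAPLN1 and HAS2 passed the threshold under each of the 13 alternatives, with adjusted p from 0.000299 to 0.0301 for HAPLN1 and from 0.000181 to 0.0254 for HAS2.

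HAPLN3, a link protein found in many tissues, measured 3.81 and 4.69 FPKM with DMSO and 6.26 and 7.21 FPKM with IWP2 (chr15:88877288-88895626, minus strand). Both IWP2 libraries were above both DMSO libraries. The mean FPKM was 1.58-fold higher, and the log2 difference of 0.56 did not pass (SE 0.151, 95% interval 0.17 to 0.95, limma adjusted p = 0.0772). It passed under none of the 13 alternatives, where the adjusted p ran from 0.0625 to 0.338.

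VCAN and HAPLN1 are separated by 55.5 kb on chromosome 5, and each of the other lectican genes has a link protein gene beside it as well. The gap is 1.93 kb between ACAN and HAPLN3, 15.7 kb between BCAN and HAPLN2, and 3.41 kb between NCAN and HAPLN4. In the VCAN pair the link gene fell and the lectican gene did not pass. The ratio of HAPLN1 to VCAN was 2.26 and 1.37 with DMSO and 0.161 and 0.236 with IWP2. In the NCAN pair, NCAN, which encodes the brain lectican neurocan, measured 1.03 and 1.40 FPKM with DMSO and 6.99 and 7.07 FPKM with IWP2 and rose (log2 difference 1.86, limma adjusted p = 0.00362). HAPLN4, the brain link protein beside it, measured 7.43 and 7.28 FPKM with DMSO and 8.85 FPKM in both IWP2 libraries, and its log2 difference of 0.24 did not pass (limma adjusted p = 0.224). The NCAN call was lost without a filter on low values (limma adjusted p = 0.0507). It was also lost without either IWP2 library (log2 difference 1.87 without replicate 1 and 1.86 without replicate 2). Over the alternatives that kept all 4 libraries the adjusted p ran from 0.00284 to 0.0507. ACAN, BCAN and HAPLN2 stayed at or below 0.532 FPKM in every library and were not tested.

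**Figure D3:**
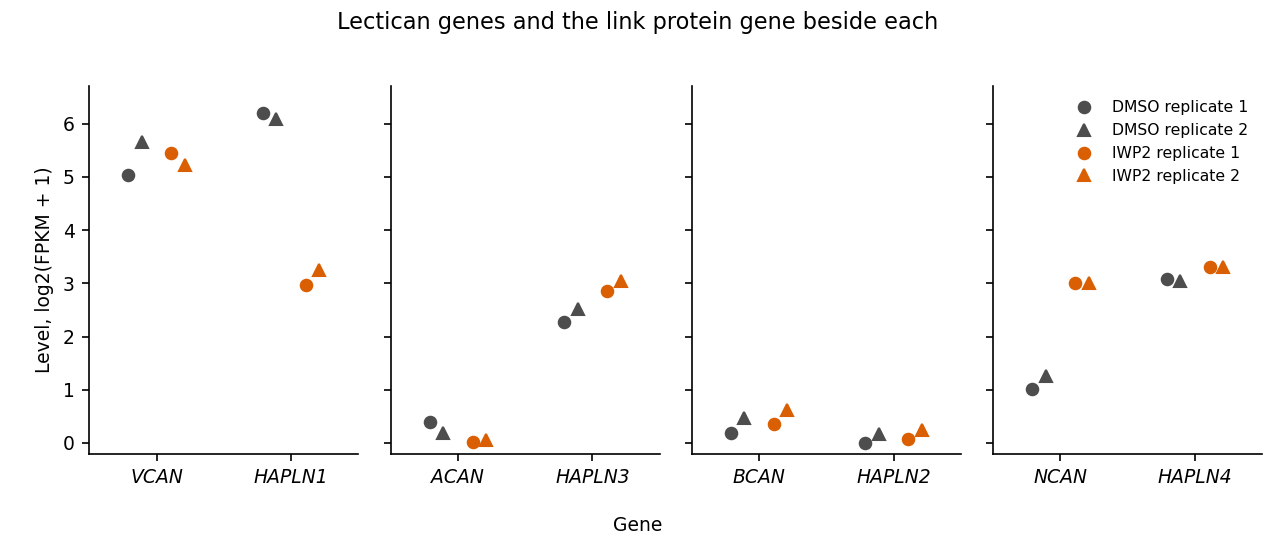
Level as log2(FPKM + 1) of each lectican gene (left in each panel) and its neighbouring link protein gene (right), with DMSO in grey, IWP2 in orange, circles for replicate 1 and triangles for replicate 2. In the VCAN panel the 2 groups separate at HAPLN1 only, while in the NCAN panel NCAN shows the wider gap, from 1.03 and 1.40 FPKM to 6.99 and 7.07 FPKM.

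The make-up of the link protein transcripts shifted accordingly. HAPLN1 was 86.5% and 84.7% of the summed HAPLN1 to HAPLN4 FPKM with DMSO and 31.1% and 34.5% with IWP2. HAPLN3 was 4.58% and 5.92% of that sum with DMSO and 28.5% and 29.1% with IWP2, and HAPLN4 8.92% and 9.19% and then 40.3% and 35.7%. The sum itself was 83.3 and 79.2 FPKM with DMSO and 21.99 and 24.8 FPKM with IWP2, so that HAPLN3 and HAPLN4 took larger shares of a smaller total. VCAN was 95.6% and 96.2% of the summed lectican FPKM with DMSO and 85.4% and 82.6% with IWP2. Versican was thus the main lectican transcript in all 4 libraries. Each of these shares differed without overlap between the groups, at the exact permutation p of 0.333 that is the smallest possible.

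CD44 is the main cell surface receptor for hyaluronan. CD44 (chr11:35138870-35232402, plus strand) measured 11.5 and 5.15 FPKM with DMSO and 1.92 and 1.93 FPKM with IWP2. The IWP2 libraries were nearly equal and both were below the DMSO libraries, which differed from each other more than 2-fold. The mean FPKM was 4.33-fold lower and the log2 difference was -1.59 (SE 0.346, 95% interval -2.47 to -0.70, limma adjusted p = 0.0451). This call lay close to the threshold and held under 8 of 13 alternatives, with adjusted p from 0.0228 to 0.237. It was lost without a filter on low values (limma adjusted p = 0.184) and without the trend (0.0641). It was also lost without DMSO replicate 1 (log2 difference -1.07), without IWP2 replicate 1 (-1.58) and without IWP2 replicate 2 (-1.59).

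Of 11 other genes for hyaluronan receptors and binders, 5 were tested and 1 passed, lower with IWP2, beside 13.3% of all genes tested. Their median log2 difference was -0.13. STAB2, a scavenger receptor of sinusoidal endothelium that clears hyaluronan, measured 0.932 and 1.08 FPKM with DMSO and 0 and 0.0114 FPKM with IWP2 (log2 difference -0.997, limma adjusted p = 0.0292). STAB2 passed the filter on low values through its DMSO libraries alone, so it had to differ, and its call is no support for a change in the list. The size of its difference was set by the pseudocount, at -3.39 with 0.1 FPKM and -6.12 with 0.01 FPKM. The call was lost without either IWP2 library (adjusted p = 0.161 and 0.152) and with a pseudocount of 0.01 FPKM, within a range of 0.0125 to 0.161. HMMR, a hyaluronan-binding protein of the mitotic spindle and the most abundant gene of the list, measured 22.5 and 23.3 FPKM with DMSO and 21.9 and 23.3 FPKM with IWP2. Its groups overlapped (log2 difference -0.02, limma adjusted p = 0.914).

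HYAL2, a surface-anchored hyaluronidase that cuts long chains into fragments, measured 39.55 and 38.6 FPKM with DMSO and 31.2 and 35.5 FPKM with IWP2 (chr3:50317790-50322906, minus strand). Both IWP2 libraries were below both DMSO libraries by a small margin. The log2 difference was -0.23 (SE 0.0982, 95% interval -0.48 to 0.03, limma adjusted p = 0.212) and did not pass. HYAL2 made up 87.6% and 87.7% of the summed HYAL1, HYAL2 and HYAL3 FPKM with DMSO and 88.4% and 89.2% with IWP2. It was thus the main transcript of that sum in all 4 libraries. The sum leaves out other hyaluronidase genes such as CEMIP2, whose values are given below. HYAL2 shares 509 exon bases with TUSC2 on the same strand, and the division of fragments between them depends on the authors' estimate. TUSC2 measured 45.8 and 48.1 FPKM with DMSO and 54.5 and 52.7 FPKM with IWP2 (log2 difference 0.19, limma adjusted p = 0.204).

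Of the 8 other genes of hyaluronan turnover, 6 were tested and 0 passed, with a median log2 difference of -0.01 and differences between -0.30 (HYAL1) and 0.24. Of these 6, 1 had an unadjusted p below 0.05. It was CEMIP2, a cell surface hyaluronidase listed under its older symbol TMEM2 and the most abundant gene of the list. CEMIP2 measured 23.8 and 23.1 FPKM with DMSO and 27.1 and 28.4 FPKM with IWP2 (limma adjusted p = 0.154).

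**Figure D4:**
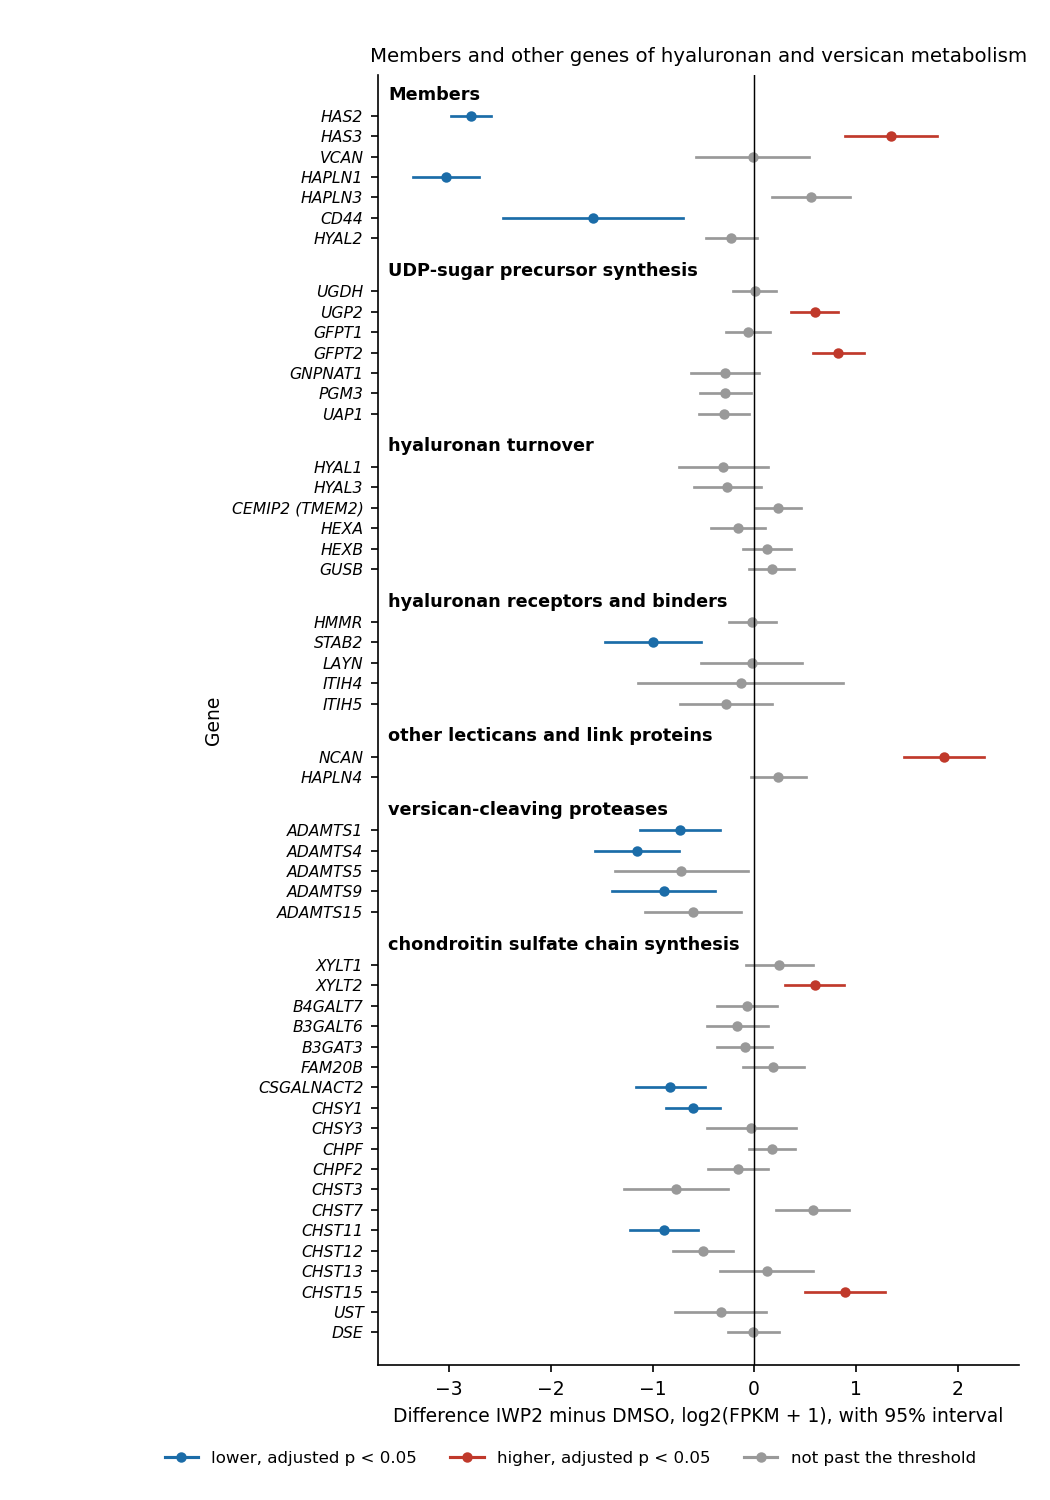
Difference IWP2 minus DMSO on the log2(FPKM + 1) scale with its 95% interval for the 7 tested members and the 44 tested genes of the related lists (blue, lower; red, higher; grey, not past an adjusted p of 0.05). HAS2 at -2.79 and HAPLN1 at -3.03 lie farthest from 0, NCAN at 1.86 is the farthest on the other side, and the 5 tested versican-cleaving proteases all lie below 0.

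The 6 lists of related genes held 57 genes, of which 44 were tested and 12 passed, 5 higher and 7 lower, beside 13.3% of all genes tested, 5.86% higher and 7.39% lower. These calls rested on all 4 libraries: 3 genes passed without DMSO replicate 1, 6 without DMSO replicate 2, and 0 without either IWP2 library. Without a filter on low values 1 passed, STAB2. The counts below are to be read with that limit, and the direction of each called gene was the same under every alternative in which it was tested.

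Hyaluronan is built from UDP-glucuronic acid and UDP-N-acetylglucosamine. Of the 7 genes of precursor synthesis, 2 rose, 0 fell and the median log2 difference was -0.06, beside 5.86% higher and 7.39% lower among all genes tested. UGP2, which makes the UDP-glucose from which UDP-glucuronic acid derives, measured 76.2 and 85.3 FPKM with DMSO and 125 and 120.0 FPKM with IWP2 (log2 difference 0.60, limma adjusted p = 0.0168). GFPT2, an isoform of the entry enzyme of the hexosamine pathway, measured 16.7 and 15.2 FPKM with DMSO and 29.9 and 28.4 FPKM with IWP2 (log2 difference 0.83, limma adjusted p = 0.00877). UGP2 and GFPT2 thus moved opposite to HAS2, and the other 5 genes of the list did not pass.

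ADAMTS proteases cleave versican. Of 6 such genes, 5 were tested, 3 fell and 0 rose, beside 7.39% lower among all genes tested, and the median log2 difference was -0.73. ADAMTS1 measured 28.8 and 22.1 FPKM with DMSO and 15.7 and 14.0 FPKM with IWP2 (log2 difference -0.73, limma adjusted p = 0.0402). ADAMTS4 measured 4.78 and 3.90 FPKM with DMSO and 1.47 and 1.32 FPKM with IWP2 (log2 difference -1.15, limma adjusted p = 0.0137). For these proteases both IWP2 libraries lay below both DMSO libraries, as they did for the other 3 tested, beside 58.6% of all genes whose groups did not overlap. ADAMTS9 measured 4.08 and 5.75 FPKM with DMSO and 2.44 and 1.91 FPKM with IWP2 (log2 difference -0.89, limma adjusted p = 0.0482). ADAMTS5 and ADAMTS15, named here after their values were seen, had log2 differences of -0.72 and -0.60 and did not pass (limma adjusted p = 0.143 and 0.103). The ADAMTS4 call held under 9 of 13 alternatives, the ADAMTS1 call under 7 and the ADAMTS9 call under 4. With quantile normalization ADAMTS1 and ADAMTS9 did not pass (adjusted p = 0.0512 and 0.0605, within ranges of 0.0238 to 0.226 and 0.0419 to 0.250), nor did they without the trend (0.0654 and 0.0555), and ADAMTS9 was also lost with median-ratio scaling (0.0507) and the replicate block (0.0685).

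Versican carries chondroitin sulfate chains. Of 20 genes of chain synthesis, 19 were tested, 2 rose and 3 fell, beside 5.86% higher and 7.39% lower among all genes tested, and the median log2 difference was -0.07. XYLT2, which adds the first xylose to the core protein, rose (5.40 and 5.67 FPKM with DMSO, 9.09 and 8.67 FPKM with IWP2, log2 difference 0.60, limma adjusted p = 0.0315). CHST15, which adds a further sulfate to sulfated N-acetylgalactosamine, rose as well (5.70 and 4.48 FPKM, then 11.03 and 9.57 FPKM, log2 difference 0.90, limma adjusted p = 0.0245). The 3 genes that fell act in chain initiation, chain extension and sulfation at carbon 4. CSGALNACT2, an initiating transferase, measured 6.33 and 5.66 FPKM with DMSO and 2.87 and 3.02 FPKM with IWP2 (log2 difference -0.82, limma adjusted p = 0.0205). CHSY1, a chain polymerase, measured 25.5 and 28.7 FPKM and then 16.8 and 18.0 FPKM (log2 difference -0.61, limma adjusted p = 0.0243). CHST11, a chondroitin 4-O-sulfotransferase, measured 18.6 and 23.0 FPKM and then 10.5 and 10.98 FPKM (log2 difference -0.89, limma adjusted p = 0.0163). CHPF, a polymerizing factor and the most abundant gene of the list, measured 38.8 and 36.2 FPKM with DMSO and 41.1 and 43.7 FPKM with IWP2 and did not pass (log2 difference 0.17, limma adjusted p = 0.277).

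**Figure D5:**
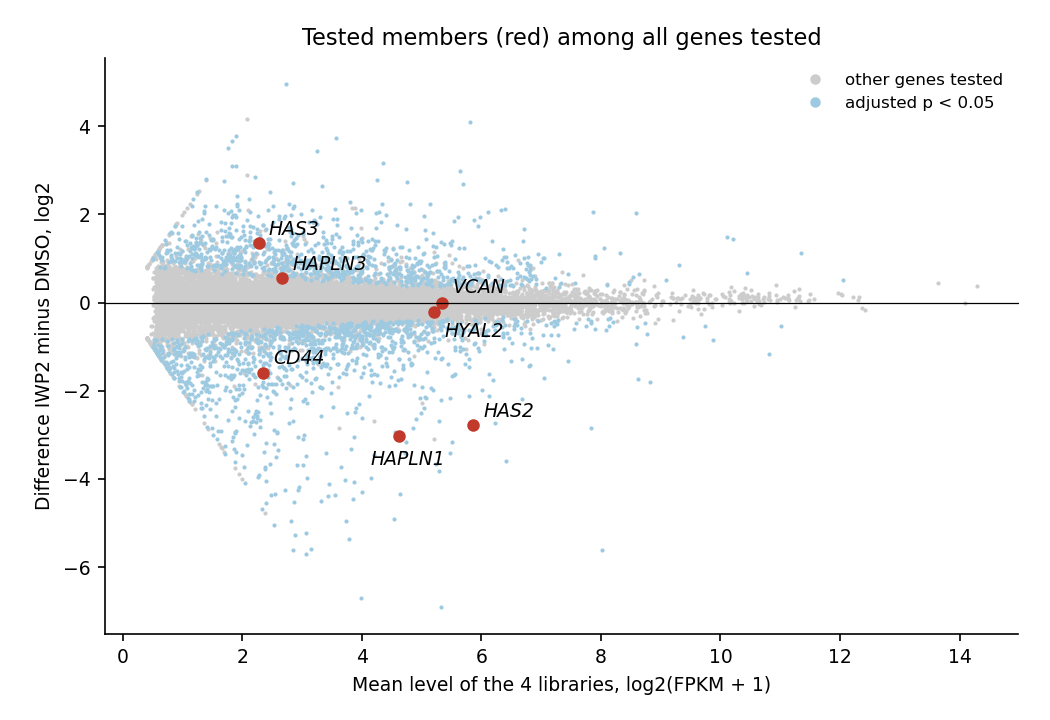
Each dot is 1 of the 15957 tested genes, placed by its mean level over the 4 libraries and its difference IWP2 minus DMSO, both on the log2(FPKM + 1) scale (light blue, adjusted p below 0.05; grey, other genes; red, the 7 tested members). HAS2 and HAPLN1 lie below the bulk of genes of similar level, and VCAN and HYAL2 lie within it.

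The genes closest in profile to each changed member were found by the root mean square difference of log2(FPKM + 1) after centring, over the 4 libraries, which is a description with 2 groups behind it. The measure rests on the pseudocount of 1 FPKM, and a low gene that drops to near 0 can lie close to an abundant gene with a smaller fold. For HAS2 these were GRAP2, an adaptor of immune cell receptors, at 0.0329, LIX1 at 0.0533, and IFI16, an interferon-inducible DNA sensor, at 0.0568. GRAP2 went from 6.19 and 5.999 FPKM with DMSO to 0 and 0.0126 FPKM with IWP2 and LIX1 from 6.14 and 6.93 FPKM to 0.0735 and 0.0243 FPKM, larger folds than that of HAS2. For HAPLN1 they were GYPB, a red cell surface glycoprotein, at 0.0580, HAS2-AS1 at 0.0674, and LEF1, a nuclear effector of Wnt signaling, at 0.0988. LEF1 was 49.8-fold lower and GYPB went from 9.29 and 9.25 FPKM to 0.150 and 0.503 FPKM, again larger folds than the 9.05-fold of HAPLN1. For HAS3 they were IGSF8 at 0.0268, TRNP1 at 0.0283 and AC107464.1 at 0.0285. For CD44 they included AC004923.2 at 0.0842 and S100Z at 0.109. HAS2-AS1 was among the 3 genes nearest to HAPLN1 and not among the 3 nearest to HAS2.

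The depth, estimated from the smallest steps between low values, was about 15.1 to 18.2 × 1e6 fragments per library, and replicates differed by a median of 0.160 (DMSO) and 0.135 (IWP2) on the log2 scale. Lists of cell state markers were set beside the members. Their counts are to be read beside all genes tested, of which 7.39% passed lower and 5.86% passed higher. Of 8 Wnt target genes, 6 fell with IWP2 and 0 rose, and their summed level was 167 to 169 FPKM with DMSO and 22.2 to 22.9 FPKM with IWP2. All 7 markers of primitive streak and early mesoderm fell (528 to 627 FPKM against 46.6 to 51.3 FPKM), as did 4 of 5 markers of definitive endoderm (1799 to 2173 FPKM against 123 to 134 FPKM). Most of the endoderm sum with DMSO was CER1 (1612 and 2048 FPKM with DMSO, 38.6 and 34.2 FPKM with IWP2). SOX17 did not pass and made up most of that sum with IWP2 (155 and 104 FPKM, then 79.7 and 94.9 FPKM, limma adjusted p = 0.166). Among 6 markers of pluripotent cells 3 rose, POU5F1, DPPA4 and SOX2, and 1 fell, TDGF1. Their sum was 1131 to 1317 FPKM with DMSO and 2406 to 2411 FPKM with IWP2. POU5F1 was its largest part (751 and 571 FPKM with DMSO, 1854 and 1844 FPKM with IWP2). TDGF1 was at 203 and 221 FPKM with DMSO and at 103 and 98.6 FPKM with IWP2. LIN28A and NANOG did not pass (limma adjusted p = 0.746 and 0.182). SOX2 was at 0.193 and 0.174 FPKM with DMSO and at 35.6 and 36.1 FPKM with IWP2. Of 5 markers of amnion or surface ectoderm, 2 of the 2 tested rose (12.5 to 17.4 FPKM against 36.6 to 37.1 FPKM) and KRT5 was at 0 in all 4 libraries. Of 5 stromal markers, 4 were tested and 1 fell, LUM (3.1 and 2.8 FPKM with DMSO, 0.108 and 0.178 FPKM with IWP2). The sum of the 5 was 94.9 to 112 FPKM against 75.0 to 78.6 FPKM. COL1A1 and COL1A2 made up most of that sum and did not pass (limma adjusted p = 0.0816 and 0.0649). PDGFRB was higher with IWP2 (7.28 and 6.05 FPKM, then 10.3 and 7.84 FPKM) and did not pass (limma adjusted p = 0.217). Of 5 endothelial markers, 3 were tested and 2 fell, KDR and TEK (sum of the 5 at 59.4 to 65.5 FPKM against 38.9 to 40.9 FPKM). Most of that sum was KDR (53.2 and 60.4 FPKM with DMSO, 38.6 and 35.7 FPKM with IWP2). TIE1 did not pass (limma adjusted p = 0.289), and PECAM1 and CDH5 were below 0.5 FPKM in every library and were not tested. Of 5 blood markers, 1 was tested and fell, RUNX1 (sum of the 5 at 3.47 to 3.6 FPKM against 0.502 to 0.581 FPKM), with GATA1 at 0 in all 4 libraries. Of 4 neural markers, 1 was tested and 0 passed (0.884 to 1.79 FPKM against 0.161 to 0.634 FPKM). SP5, LEF1, MESP1, MESP2, GSC, FOXA2, HHEX, SOX2, RUNX1, LUM and GABRP passed the filter on low values through 1 group alone. They had to differ, so their calls are no support for a change in their lists. The part of the cell states in the differences of HAS2, HAPLN1, CD44 and HAS3 was not tested.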

How the data were processed

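RNA from H1 cells at day 2 was made into libraries with the TruSeq RNA kit from 2 ug of total RNA, and 4 libraries were compared, 2 per group. The deposited table gives 1 value per gene and library. The DMSO columns are headed as without IWP2, and replicate numbers are those of the column heads. Its header names no unit, and the values were read as FPKM estimated by the authors. Their processing notes list BWA, Bowtie and RSEM, with no versions, and hg19. The gene positions in the table are GRCh38 instead: 97.3% of matched rows lie at the GENCODE v29 position, and positions are given here 1-based on GRCh38. Reads and counts were not used here, so depth was estimated from single-exon genes of 800 to 1200 bases and is approximate. The labels and the study's methods give the activinA and BMP4 amounts the other way round, and the labels were followed.

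Where a symbol repeated, the row with the highest mean was kept. Genes with a mean of at least 0.5 FPKM (15957) were tested with limma 3.58.1 in R 4.3.3 on log2(FPKM + 1), which understates changes of low genes, with an intensity trend and Benjamini-Hochberg adjustment over all of them (threshold 0.05, two-sided). Shares were compared by an exact permutation test. The code was tested on simulated data. The members and the gene lists were chosen with earlier results of these data known. Named genes were all 8 members, the genes of the related lists that passed, the most abundant gene of each list, and the 3 nearest profiles of each changed member, of which 1 is not reported here. Genes that overlap a member, the neighbouring lectican and link genes, HYAL1 and single genes of the marker lists are named besides, after their values were seen. Promoters came from RefSeq (GRCh38.p14, 250 bases before the start). Alternatives changed the pseudocount, filter, scaling, block, prior and libraries.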

Additional observations from a re-analysis of the deposited data

How the results depend on the processing

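HAS2, HAPLN1, HAS3, CD44, HAPLN3 and HYAL2 kept their direction under all alternatives, and HAS2, HAPLN1, HAPLN3 and HYAL2 also kept their side of the threshold. The count of genes changed by IWP2 was 2115. Without a filter on low values it was 384, with 2 members and 1 gene of the related lists, and 28846 genes were then tested. Leaving out 1 library at a time gave 187 to 934 genes, 2 to 4 members and 0 to 6 genes of the related lists. A group is then 1 sample that is assumed to vary like the other group. The VCAN difference of -0.01 became 0.027 with quantile normalization and ranged from -0.32 to 0.29 when 1 library was left out (0.29 without DMSO replicate 2, 0.096 without IWP2 replicate 2), and never passed. Over the 7 tested members and the 12 called genes of the related lists, 175 values kept their direction and side of the threshold and 66 kept their direction but no longer passed. Other named genes were not run under the alternatives. With a replicate block 1922 genes, 4 members and 9 genes of the related lists passed. STAB2, ADAMTS9 and XYLT2 lost their call under the block (adjusted p = 0.0506, 0.0685 and 0.0551, within ranges of 0.0125 to 0.161, 0.0419 to 0.250 and 0.0249 to 0.210 over all alternatives). The labels give the replicates only a number. Deviations of DMSO replicate 1 and IWP2 replicate 1 from their group means correlated at 0.138 over genes. With 2 libraries per group the pair of replicates 2 repeats that value, so it counts once. The difference in HAS2 share ranged from -24.1 to -21.9 percentage points. Tests on counts were not run, since the table used here holds none. With 2 libraries per group, the spread is poorly known, and this and the unknown true depth limit what can be called, above all for low genes such as HAS1.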
